A study of Homo sapiens with 5 samples.

Results

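The miR-99/100 and miR-125 families were followed through 9 mature miRNA rows, chosen by name among the 2565 human miRNA rows of 5 small RNA libraries: hsa-miR-99a-5p, hsa-miR-99b-5p, hsa-miR-99b-3p, hsa-miR-100-5p, hsa-miR-125a-5p, hsa-miR-125a-3p, hsa-miR-125b-5p, hsa-miR-125b-1-3p and hsa-miR-125b-2-3p. The count tables also list the 2 remaining arms of the same hairpins, miR-99a-3p and miR-100-3p, which were described beside them. The cells were MCF10A, a human breast epithelial line that is immortal but does not form tumours, grown in DMEM/F12 with horse serum, epidermal growth factor, insulin, cholera toxin and hydrocortisone. Detached cells (2 libraries) had been held for 24 h on plates coated with 2% poly-HEMA, to which cells do not adhere, and attached cells (3 libraries) came from uncoated plates. The attached libraries carry a time label of 0 h, whereas the design text speaks of 24 h in either condition, and the sources do not settle which applies. Whether replicates came from separate cultures is not stated, and p-values therefore refer to the spread among these libraries alone, which can be technical.

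Each of these miRNAs is cut from a hairpin whose 5p and 3p arms can both be loaded into Argonaute, and the loaded arm pairs with mRNAs mainly through its seed, bases 2 to 8. The miR-125 family descends from the lin-4 miRNA of Caenorhabditis elegans, and in mammals it shares polycistronic clusters with miR-99/100 and let-7. miR-99/100 is known for repressing MTOR and IGF1R, and miR-125 for repressing LIN28 and, in breast cancer cells, ERBB2 and ERBB3.

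The mature sequences of the guide arms are shown because each family is defined by its seed, given in capitals, 5′ to 3′ (RefSeq, GRCh38.p14). miR-100-5p (chr11:122152275-122152296, minus strand), miR-99a-5p (chr21:16539101-16539122, plus strand) and miR-99b-5p (chr19:51692618-51692639, plus strand) carry the seed ACCCGUA, and miR-125a-5p (chr19:51693268-51693291, plus strand) and miR-125b-5p (chr11:122099809-122099830, minus strand, and chr21:16590253-16590274, plus strand) carry CCCUGAG.
miR-100-5p: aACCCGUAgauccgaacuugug
miR-99a-5p: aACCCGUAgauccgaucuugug
miR-99b-5p: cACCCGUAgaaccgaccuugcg
miR-125b-5p: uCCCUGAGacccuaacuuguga
miR-125a-5p: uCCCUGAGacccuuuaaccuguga
Counted from the 5′ end, miR-99a-5p and miR-100-5p differ by 1 substitution, U16A, and miR-99a-5p and miR-99b-5p by 4, A1C, U11A, U16C and U21C. miR-125a-5p and miR-125b-5p share their first 13 and last 5 bases. How reads that match several names were counted is not given in the sources used here, so the split between miR-99a-5p and miR-100-5p is uncertain. In the RefSeq table the other human name with a CCCUGAG seed was miR-4319, which had 0 counts over the 5 libraries, and no further name shared ACCCGUA.

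The hairpins sit in 3 clusters, each with a let-7 hairpin between the miR-99/100 and the miR-125 one (GENCODE 29, GRCh38). MIR100, MIRLET7A2 and MIR125B1 lie in introns of the long noncoding RNA gene MIR100HG on the minus strand of chromosome 11 and span 52552 bp. MIR99A, MIRLET7C and MIR125B2 lie in introns of the long noncoding RNA gene MIR99AHG on the plus strand of chromosome 21 and span 51237 bp. MIR99B, MIRLET7E and MIR125A lie within 728 bp in introns of the protein-coding gene SPACA6 on the plus strand of chromosome 19, where they also overlap an exon of the antisense gene SPACA6P-AS. The mature miR-125b-5p is identical from MIR125B1 and MIR125B2, so only the 3p arms tell these loci apart.

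Human miRNA counts totalled 15793173 and 10533740 in the detached libraries and ran from 8805009 to 12153778 in the attached ones, which puts a floor of 3 counts at 0.19 to 0.341 CPM. Levels are raw counts per 1000000 human miRNA counts of the library (CPM), and the floor covers counting error only. Attached replicate 2 stood apart: over 697 tested miRNAs its Spearman correlation with each other library was 0.812 to 0.857, whereas the remaining 4 gave 0.927 to 0.961 with each other, and results are therefore given with and without it. All 6 mammary epithelial marker miRNAs (miR-205-5p, miR-200a/b/c-3p, miR-141-3p and miR-31-5p) had counts in every library, summing to 87315 and 121473 CPM in detached and 42332 to 97831 CPM in attached cells. The 4 mesenchymal markers summed to 56.8 and 17.8 CPM in detached replicates 1 and 2 and 3.68 to 11.5 CPM in attached cells, with miR-214-3p at 0 in at least 1 library. The 6 blood-cell markers summed to 21.7 and 21.6 CPM in detached replicates 1 and 2 and 5.68 to 18.5 CPM in attached cells, with miR-144-3p, miR-223-3p and miR-150-5p each at 0 in at least 1 library. Both sums were higher in each detached library than in any attached one. Singly, miR-145-5p, miR-451a and miR-144-3p had that order, and the other markers of these lists overlapped between groups. miR-144-3p had 12 counts at most and did not pass the low-count filter. Of the epithelial markers, miR-200b-3p and miR-200c-3p had that order too, miR-141-3p had the opposite one, and the others overlapped. Over all 697 tested miRNAs, 126 (18.1%) had that order and 61 (8.75%) the opposite one. The 3 neural markers summed to 351 to 416 CPM in detached and 283 to 462 CPM in attached cells. Most of this was miR-128-3p, at 341 and 412 CPM in detached and 275 to 456 CPM in attached cells. miR-9-5p reached 9.81 CPM at most, and miR-124-3p was at 0 in attached replicate 2. The 3 muscle markers reached 11.7 CPM at most in detached and 1.40 CPM in attached cells, and the liver marker 0.19 and 0.775 CPM. The part of other cells in the results below was not tested. In these bulk libraries fewer cells of a type and less RNA per cell cannot be told apart.

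The guide arms were among the most abundant miRNAs of these cells, and the 9 rows together made up 58994 and 48540 CPM in detached cells and 62442, 43369 and 83323 CPM in attached replicates 1, 2 and 3. miR-100-5p ranked between 6 and 9 among all human miRNAs in every library, miR-125b-5p between 7 and 14 and miR-125a-5p between 12 and 19. miR-99b-5p ranked between 39 and 69 and miR-99a-5p between 87 and 119. Each 3p arm was scarcer than the 5p arm of its own hairpin in every library, and the 3p members ranged from 587 CPM for miR-99b-3p in attached replicate 2 down to 5.51 CPM for miR-125b-2-3p in detached replicate 1. Most of these RNAs are 22 nt and miR-125a-5p is 24 nt, so a read spans a whole molecule. CPM were therefore compared between names without a length correction, although cloning efficiency may differ between sequences. miR-125a-5p also lies at the upper limit of the 18 to 24 nt selected by gel, and its recovery was not tested. In the order of mean levels, the ranges of miR-100-5p and miR-125b-5p overlapped across libraries, as did those of miR-125b-5p and miR-125a-5p. Within each library, however, miR-125b-5p was above miR-125a-5p, by 1.26 to 1.77 reads to 1. miR-99b-5p and then miR-99a-5p lay below all of these guides in every library.

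**Figure D1:**
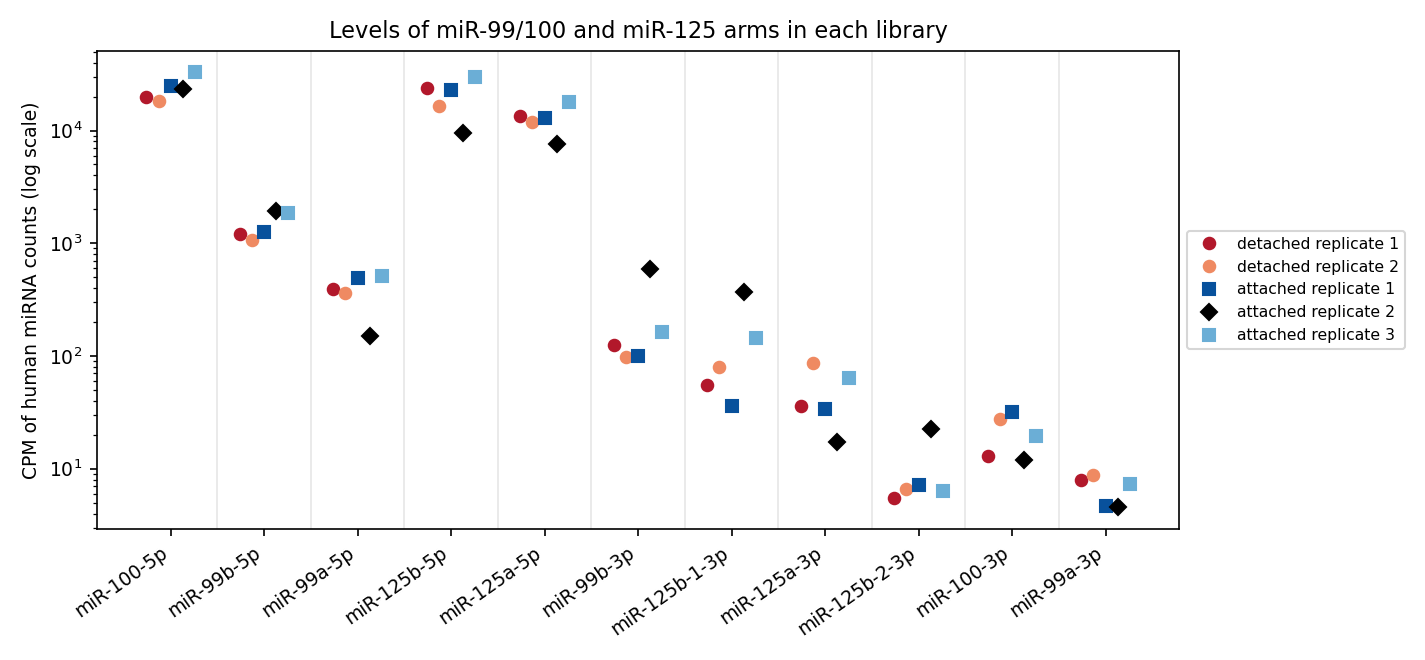
Levels of the 9 members and the 2 further arms in each library, as CPM of human miRNA counts on a log axis. Circles are detached and squares attached libraries, with attached replicate 2 as black diamonds. miR-100-5p and miR-99b-5p are lower in both detached libraries than in any attached one, and attached replicate 2 is the highest point for miR-99b-5p, miR-99b-3p, miR-125b-1-3p and miR-125b-2-3p.

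No member passed the test between detached and attached cells. edgeR's quasi-likelihood test called 0 of the 9 members at adjusted p under 0.05, with 0 at unadjusted p under 0.05. Over all 697 tested human miRNAs it called 0 higher and 0 lower (0.0% each), with 46 at unadjusted p under 0.05 (6.6%). All 9 members passed the low-count filter. DESeq2 also called 0 members, against 12 miRNAs higher (1.26% of 949) and 0 lower, and edgeR without attached replicate 2 called 0 members, against 12 higher (1.77% of 679) and 0 lower. In the authors' deposited table the adjusted p was 0.998 for each of the 9 members.

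miR-100-5p, the guide of the MIR100 hairpin in the MIR100HG cluster, was lower in both detached libraries than in any attached one. It measured 19685 and 18390 CPM in detached replicates 1 and 2, against 25059, 23126 and 32718 CPM in attached replicates 1, 2 and 3. The groups did not overlap. The means were 19037 ± 916 CPM in detached (SD, n = 2) and 26968 ± 5073 CPM in attached cells (SD, n = 3). edgeR put this at -0.50 ± 0.41 on the log2 scale (SE, adjusted p = 0.882). Without attached replicate 2 edgeR gave -0.60 ± 0.35 (SE, adjusted p = 0.657). Its sign was negative under every scaling tried, at -0.73 with TMM factors and -0.81 with DESeq2 size factors. The median over all tested miRNAs moved as well, being 0.20 with library totals and -0.039 with TMM factors, so that relative to it miR-100-5p stood at -0.70 and -0.69.

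miR-99b-5p, with the same seed and from the SPACA6 cluster, had the same order of libraries between groups. It measured 1210 and 1066 CPM in detached cells, against 1260, 1944 and 1837 CPM in attached cells, so its groups did not overlap either, although detached replicate 1 and attached replicate 1 lay close together. edgeR estimated a log2 fold change at -0.56 ± 0.53 (SE, adjusted p = 0.914), and -0.44 ± 0.44 (SE, adjusted p = 0.883) without attached replicate 2. These 2 of the 9 members had all detached libraries below all attached ones, and 0 had them above. Over all 697 tested miRNAs, 61 (8.75%) lay below in this way and 126 (18.1%) above, 26.8% in all.

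miR-99a-5p, which differs from miR-100-5p at a single base, did not share that order. It measured 396 and 360 CPM in detached cells, against 487, 149 and 513 CPM in attached cells, with the lowest value in attached replicate 2. By edgeR the log2 difference was -0.020 ± 0.70 (SE, adjusted p = 0.995), and -0.40 ± 0.46 (SE, adjusted p = 0.912) without that library. The number of miR-100-5p reads per miR-99a-5p read was 49.7 and 51.1 in detached cells and 51.4, 155 and 63.7 in attached cells. Both detached libraries were below every attached one, by a narrow margin from attached replicate 1, and attached replicate 2 stood far above the rest. The share of ratios between miRNAs that lie apart in this way was not computed, so this order has no background beside it.

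The miR-125 guides had near-equal group means and a wide spread among attached libraries. miR-125b-5p measured 23928 and 16473 CPM in detached cells, against 22675, 9581 and 29788 CPM in attached cells. The edgeR log2 estimate was -0.034 ± 0.55 (SE, adjusted p = 0.990), and -0.38 ± 0.37 (SE, adjusted p = 0.883) without attached replicate 2. miR-125a-5p measured 13553 and 11981 CPM in detached cells, against 12785, 7576 and 18090 CPM in attached cells. In edgeR this came to -0.0056 ± 0.50 on the log2 scale (SE, adjusted p = 0.996), and -0.27 ± 0.37 (SE, adjusted p = 0.938) without that library. For both guides attached replicate 2 was the lowest and attached replicate 3 the highest library, with the detached libraries between them.

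There were 1.77 and 1.37 miR-125b-5p reads per miR-125a-5p read in detached cells, against 1.77, 1.26 and 1.65 in attached cells, a 1.4-fold range over the 5 libraries and 1.29-fold without attached replicate 2. The ratio of miR-100-5p to miR-125b-5p, which are both encoded in MIR100HG, ran from 0.823 to 2.41, a 2.93-fold range (1.36-fold without attached replicate 2), with 0.823 and 1.12 in detached and 1.11, 2.41 and 1.10 in attached cells. Likewise miR-125a-5p and miR-99b-5p, whose hairpins lie 572 bp apart, gave 11.2 and 11.2 miR-125a-5p reads per miR-99b-5p read in detached cells, against 10.1, 3.90 and 9.85 in attached cells, a 2.88-fold range that was 1.14-fold without attached replicate 2. Attached replicate 2 was the library that departed in both of these ratios, and in the second the detached libraries were above every attached one. That order too has no background share over other ratios beside it.

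Summed by seed, the miR-99/100 guides were lower in both detached libraries, at 21291 and 19815 CPM, than in attached cells, at 26806, 25219 and 35069 CPM. The miR-125 guides summed to 37481 and 28454 CPM in detached and 35459, 17157 and 47877 CPM in attached cells, and the groups overlapped. The difference of mean log2 sums, detached minus attached, was -0.48 for miR-99/100 and 0.086 for miR-125, and the miR-125 difference became -0.34 without attached replicate 2 and -0.17 with TMM factors. miR-100-5p set the first sum, with 16.3 and 17.3 miR-100-5p reads per miR-99b-5p read in detached cells and 19.9, 11.9 and 17.8 in attached cells.

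**Figure D2:**
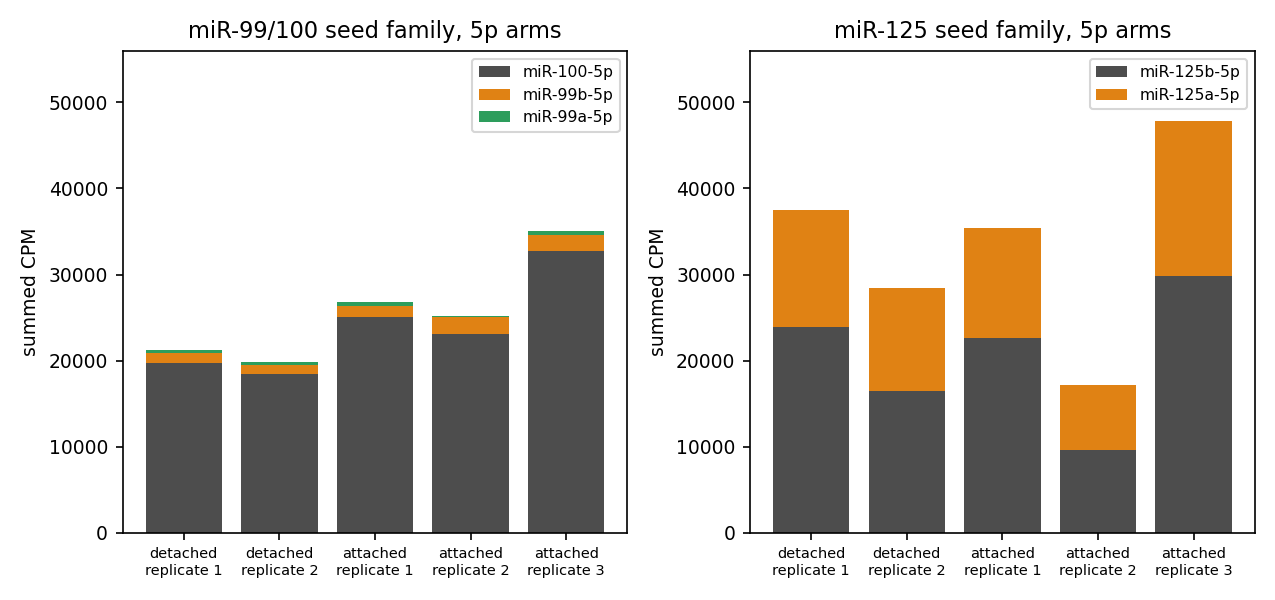
Summed CPM of the guide arms that share a seed, stacked by miRNA, for the 2 detached and 3 attached libraries. The miR-99/100 bars stand at 21291 and 19815 CPM in detached libraries and at 25219 CPM or more in attached ones, while the miR-125 bars of attached libraries span 17157 to 47877 CPM on either side of the detached ones.

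The 3p arms gave the widest differences in mean, and attached replicate 2 set most of them. miR-99b-3p measured 125.5 and 98.6 CPM in detached cells, against 99.1, 587 and 163 CPM in attached cells. edgeR estimated a log2 fold change at -1.34 ± 0.90 (SE, adjusted p = 0.871) with all libraries and -0.23 ± 0.53 (SE, adjusted p = 0.971) without attached replicate 2. miR-125b-1-3p, the arm that marks MIR125B1, measured 55.8 and 79.9 CPM in detached cells, against 36.3, 366 and 143 CPM in attached cells. By edgeR the log2 difference was -1.42 ± 0.99 (SE, adjusted p = 0.871), and -0.40 ± 0.68 (SE, adjusted p = 0.953) without that library. Both arms overlapped between groups, and attached replicate 2 was the highest library for each.

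miR-125b-2-3p, the arm that marks MIR125B2, was the scarcest member and followed the same pattern. It had 87 and 69 counts (5.51 and 6.55 CPM) in detached cells, against 88, 199 and 66 counts (7.24, 22.6 and 6.39 CPM) in attached cells. The edgeR log2 estimate was -1.0 ± 0.78 (SE, adjusted p = 0.877), and -0.18 ± 0.51 (SE, adjusted p = 0.971) without attached replicate 2. miR-125b-1-3p outnumbered it in every library, by 10.1 and 12.2 reads to 1 in detached cells and by 5.01, 16.2 and 22.4 to 1 in attached cells. The arm assigned to MIR100HG was thus the more abundant of the pair throughout, with overlapping groups.

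miR-125a-3p was the member with a positive log2 fold change. It measured 35.6 and 85.9 CPM in detached cells, against 33.6, 17.1 and 64.2 CPM in attached cells. With edgeR the log2 estimate was 0.66 ± 0.79 (SE, adjusted p = 0.934), and it was -0.10 without detached replicate 2. Of the 2 further arms, miR-99a-3p was higher in both detached libraries, at 7.91 and 8.73 CPM, than in attached ones, at 4.69, 4.54 and 7.27 CPM (0.60, SE 0.59, edgeR adjusted p = 0.914). miR-100-3p overlapped, at 13.0 and 27.6 CPM in detached and 31.8, 11.9 and 19.6 CPM in attached cells.

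**Figure D3:**
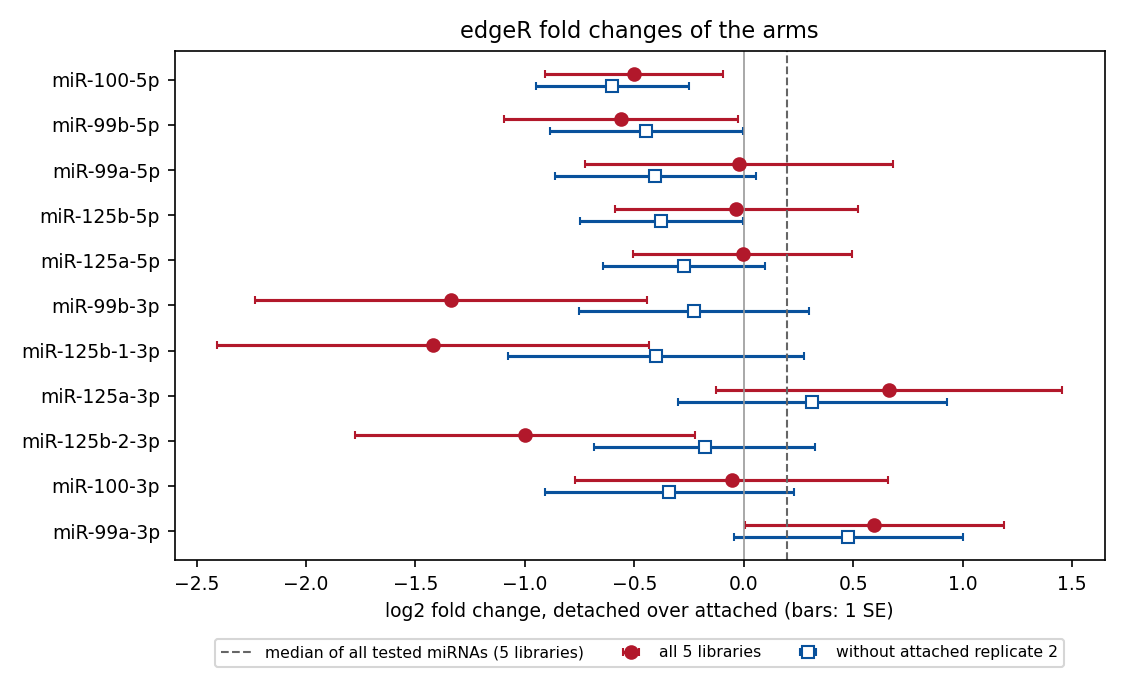
edgeR log2 fold changes, detached over attached, of the 11 arms with all 5 libraries (circles) and without attached replicate 2 (open squares), with bars of 1 SE. The dashed line marks the median of all tested miRNAs, 0.20. miR-99b-3p, miR-125b-1-3p and miR-125b-2-3p move from between -1.42 and -1.0 to between -0.40 and -0.18 when that library is left out.

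Over the 9 members, 8 log2 fold changes were negative and the median was -0.50, while 293 of all 697 tested miRNAs (42.0%) were negative with a median of 0.20. With TMM and DESeq2 size factors the members again had 8 negative values, at medians of -0.73 and -0.81, while 357 and 385 of the 697 were negative, at medians of -0.039 and -0.097. With library totals, the values of miR-99a-5p, miR-125a-5p and miR-125b-5p lay between -0.034 and -0.0056 and took the opposite sign with limma-voom. Without attached replicate 2 again 8 of the 9 were negative, with a median of -0.38, beside a median of 0.047 over all miRNAs tested in that fit. Of the 697 miRNAs tested with all libraries, 327 were negative in that fit, which did not test every one of them.

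Both arms of a hairpin were counted in the same library, so their ratio needs no scaling between libraries, and 6 such ratios were tested. For MIR125B1 and MIR125B2 the 5p reads come from both loci, so these ratios are not those of a single precursor. The hairpins of MIR99B and MIR125B1 are shown with their annotated arms in capitals (RefSeq, GRCh38.p14). They are examples of the pairs whose ratio was lowest in attached replicate 2, as it also was for MIR99A and MIR125B2.
MIR99B, chr19:51692612-51692681, plus strand: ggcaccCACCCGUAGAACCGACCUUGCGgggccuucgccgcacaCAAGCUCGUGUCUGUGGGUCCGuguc
MIR125B1, chr11:122099757-122099844, minus strand: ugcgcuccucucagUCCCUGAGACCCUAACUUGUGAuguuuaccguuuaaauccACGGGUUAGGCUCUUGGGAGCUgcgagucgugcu

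The 5p arm outnumbered the 3p arm in all 6 pairs and all 5 libraries, by 3.31 to 1 at the least and 4659 to 1 at the most. For MIR99B there were 9.64 and 10.8 reads of 5p per read of 3p in detached cells, against 12.7, 3.31 and 11.2 in attached cells. For MIR125B1 there were 429 and 206 reads of miR-125b-5p per read of miR-125b-1-3p in detached cells, against 625, 26.2 and 208 in attached cells. For MIR125B2 the same guide gave 4344 and 2515 reads per read of miR-125b-2-3p in detached cells, against 3132, 424 and 4659 in attached cells. The last 2 ratios share their 5p reads, which come from both loci. In each of these 3 pairs attached replicate 2 was the lowest of the 5 libraries and the groups overlapped.

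In MIR99A attached replicate 2 was the lowest library too, while MIR100 and MIR125A went the other way. MIR100 had 1517 and 666 reads of 5p per read of 3p in detached cells, against 789, 1939 and 1672 in attached cells. MIR125A had 380 and 139 in detached cells, against 381, 442 and 282 in attached cells. MIR99A had 50.1 and 41.2 in detached cells, against 104, 32.9 and 70.7 in attached cells. For MIR100 and MIR125A attached replicate 2 was the highest and detached replicate 2 the lowest library.

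Exact two-sided permutation tests of the log2 ratios over the 5 libraries gave p between 0.4 and 1, and adjusted p of 1 for all 6, with 0.2 the smallest p that 2 against 3 libraries allow. The differences of mean log2 ratio, detached minus attached, were 0.98 for MIR125B1, 0.85 for MIR125B2 and 0.39 for MIR99B, and became -0.28, -0.21 and -0.23 without attached replicate 2. They were -0.44 for MIR100, -0.45 for MIR99A and -0.65 for MIR125A, and -0.19, -0.91 and -0.51 without attached replicate 2. Without attached replicate 1 the MIR99A difference was -0.079, and without detached replicate 2 the signs of MIR100 (0.15) and MIR125A (0.073) turned. Over 115 arm pairs of human miRNAs with a mean of at least 50 counts in each arm, the log2 ratio in attached replicate 2 differed from the median of the other 4 libraries by -3.33 at the 10th percentile, 0.38 at the median and 3.09 at the 90th percentile, with 53 pairs lower and 62 higher. MIR125B1 lay at -3.51, MIR125B2 at -3.12, MIR99B at -1.74, MIR99A at -0.87, MIR125A at 0.43 and MIR100 at 0.82. MIR125B1 thus lay below the 10th percentile, and the other 5 pairs lay between the 10th and the 90th. The 115 pairs were matched by name, so the MIR125B1 and MIR125B2 ratios, with their pooled 5p reads, are not among them.

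**Figure D4:**
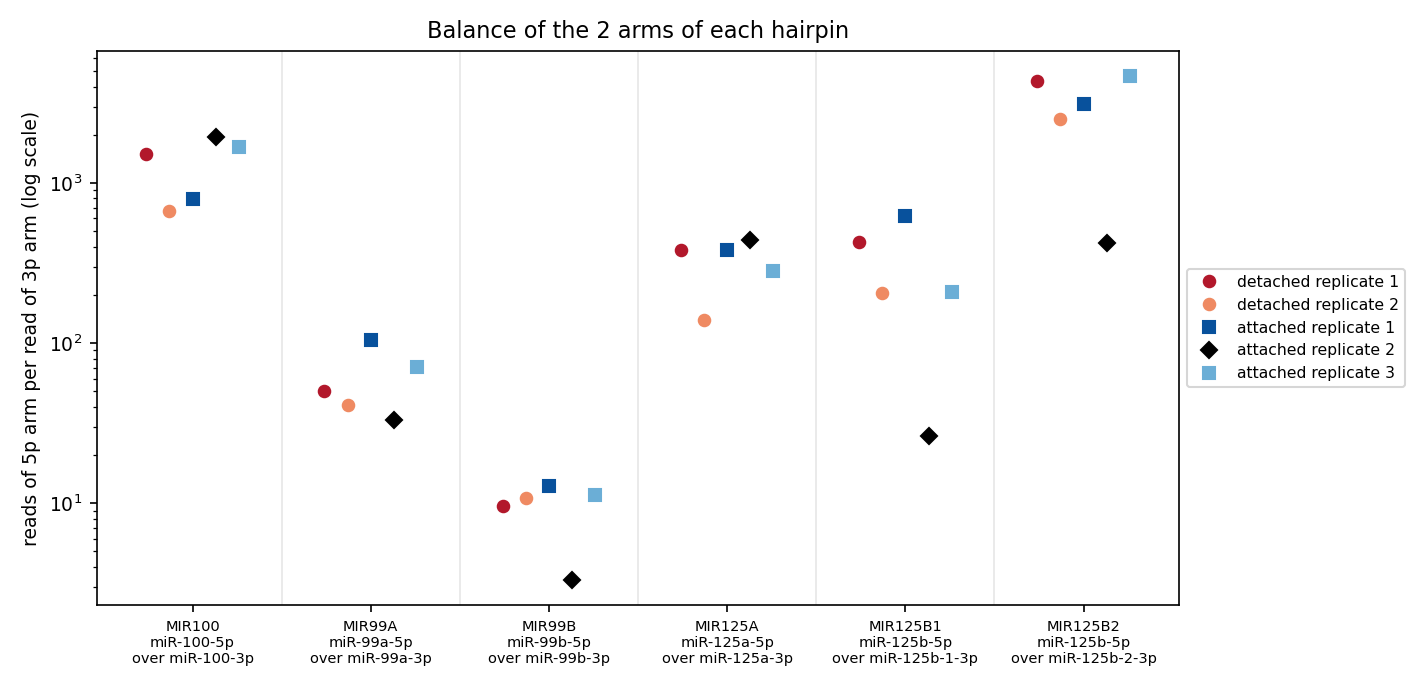
Reads of the 5p arm per read of the 3p arm for each hairpin and library, on a log axis. Circles are detached and squares attached libraries, with attached replicate 2 as black diamonds. That library falls to 26.2 for MIR125B1 and 3.31 for MIR99B, below every other library, and is the highest for MIR100 and MIR125A.

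Attached replicate 2 held the highest level of 4 of the 9 members (miR-99b-5p, miR-99b-3p, miR-125b-1-3p and miR-125b-2-3p) and the lowest level of 4 others (miR-99a-5p, miR-125a-5p, miR-125a-3p and miR-125b-5p). Over all 697 tested miRNAs it was the highest library for 155 (22.2%) and the lowest for 356 (51.1%). The 4 arms that were highest there have GC contents of 54.5 to 63.6%, and the 4 that were lowest 50 to 59.1%. The part of base composition in this pattern was not tested.

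Summed by locus, the arms of MIR100HG (miR-100-5p, miR-100-3p and miR-125b-1-3p) gave 19754 and 18497 CPM in detached cells, against 25127, 23504 and 32881 CPM in attached cells. The arms of MIR99AHG (miR-99a-5p, miR-99a-3p and miR-125b-2-3p) gave 410 and 375 CPM in detached cells, against 499, 176 and 527 CPM in attached cells. The arms of SPACA6 (both of miR-99b and of miR-125a) gave 14924 and 13231 CPM in detached cells, against 14178, 10124 and 20154 CPM in attached cells. miR-125b-5p was left out of these sums because MIR100HG and MIR99AHG both encode it. The MIR100HG sum did not overlap between groups, which rests on miR-100-5p alone, and the MIR99AHG and SPACA6 sums did overlap. miR-125b-5p itself, at 23928 and 16473 CPM in detached and 9581 to 29788 CPM in attached cells, overlapped between groups. The MIR100HG sum therefore does not give the order of the whole locus.

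No let-7 arm of the clusters passed the test. let-7e-5p, from SPACA6, measured 5182 and 4873 CPM in detached cells, against 5216, 5763 and 6048 CPM in attached cells (-0.17 ± 0.45 by edgeR on the log2 scale, SE, adjusted p = 0.959). let-7c-5p, from MIR99AHG, measured 324 and 279 CPM in detached cells, against 261, 297 and 339 CPM in attached cells. let-7a-5p, which MIR100HG shares with hairpins on chromosomes 9 and 22, measured 77791 and 51996 CPM in detached cells, against 45951, 89478 and 61789 CPM in attached cells. All 6 let-7 arms of the clusters were tested and edgeR called 0, with 0 at unadjusted p under 0.05, and their 3p arms (let-7a-2-3p, let-7c-3p and let-7e-3p) reached 39.4 CPM at most. Of the 9 let-7 family guides, which repress LIN28 and RAS and share these transcripts in part, edgeR called 0, with 4 negative and 5 positive and a median of 0.011. With TMM factors 6 were negative and the median was -0.24.

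The miRNAs whose library profiles were closest to each leading guide were found from the root mean square difference of mean-centred log2(CPM + 1) values over the 5 libraries. For miR-100-5p these were miR-1304-3p (0.114), miR-548ay-3p (0.142) and miR-18a-3p (0.158), among 696 miRNAs with a median difference of 0.633, and miR-548ay-3p reached 1.56 CPM at most. let-7e-5p stood at place 16, miR-99b-5p at 28, let-7c-5p at 37, miR-125a-5p at 120, let-7a-5p at 201 and miR-125b-5p at 233. miR-99a-5p, with the same seed, stood at place 334. For miR-125b-5p they were miR-186-3p (0.0833), let-7d-5p (0.15) and miR-6727-3p (0.160), with a median of 0.706, and miR-6727-3p was at 0 in attached replicate 2 and under 1.5 CPM elsewhere. Of the other members, miR-125a-5p and miR-99a-5p stood at places 6 and 7, while the 3p arms of the miR-125b hairpins, miR-125b-2-3p and miR-125b-1-3p, stood at places 591 and 660.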

How the data were processed

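Small RNAs of 18 to 24 nt were gel-selected from 50 µg of TRIzol-extracted RNA and ligated to adapters, per the labels' protocols. The authors deposited raw read counts for 49965 named small RNAs per library, with 5 summary rows totalling 0. They also deposited a comparison table with log2 fold changes and p-values, per the file header, from which only values of the members were copied and whose 5 per-library columns were not used here. The submitters' processing notes name hg38 and DESeq2 without a role. They name no aligner or counter, so how reads were assigned is not given here.

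Counts of 2565 human miRNA rows entered edgeR 4.0.16 under R 4.3.3 (quasi-likelihood F test, two-sided, Benjamini-Hochberg adjustment over 697 rows; filterByExpr, min.count 10, min.total.count 15). Library size was the human miRNA total without a further factor. SE is the absolute log2 fold change over the square root of F. Arm ratios had 0.5 counts added and were tested by exact permutation (scipy 1.17.1). The fit was tested on simulated data with a smaller spread between libraries than these data had, and with planted changes larger than those of the members. That test therefore does not show how well changes of the members' size would be found. Alternatives were TMM and DESeq2 size factors, all named rows, no filter, 100 CPM in 2 libraries, DESeq2 1.42.0, limma-voom (limma 3.58.1), a replicate block, other added constants and leaving out each library; DESeq2 without attached replicate 2 and the ranges of guide ratios without it were added after seeing the data. The named miRNAs were all arms of the member hairpins, the let-7 arms of their clusters, miRNAs with the same seed and the 3 nearest profiles of each family's most abundant member. Members, lists and tests were chosen with earlier results of these data known.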

Additional observations from a re-analysis of the deposited data

How the results depend on the processing

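The 9 members had 0 calls under every alternative run, although miR-125a-3p and miR-125b-2-3p did not pass the filter of 100 CPM in 2 libraries and were not tested there. Over all human miRNAs, where edgeR called 0, calls higher in detached cells numbered 15 without the low-count filter, 12 with DESeq2, 25 with DESeq2 without attached replicate 2, and 0 to 12 when each library was left out (12 without attached replicate 2). Calls lower numbered 5 without the filter, 5 with DESeq2 without attached replicate 2, and 0 with each library left out. The log2 fold changes of miR-100-5p, miR-99b-5p, miR-99b-3p, miR-125b-1-3p, miR-125b-2-3p, miR-99a-3p and let-7e-5p kept their sign under all alternatives that gave a value.

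The replicate numbers pair no samples by the labels. Deviations from the group mean correlated at -0.267 and -0.245 between same-numbered libraries. With 2 detached libraries their deviations mirror each other, so these values are not separate checks and cannot decide whether libraries pair. With the replicate block edgeR called 0 miRNAs, and the sign changed for miR-99a-5p (0.48), miR-125a-5p (0.37), miR-125b-5p (0.43) and let-7c-3p (0.68). With limma-voom it changed for miR-99a-5p (0.17), miR-125a-5p (0.076), miR-125b-5p (0.089), let-7a-5p (0.031) and let-7a-2-3p (-0.050). TMM factors, DESeq2 size factors and DESeq2 gave -0.24, -0.31 and -0.24 for let-7a-2-3p, -0.24, -0.32 and -0.21 for let-7c-5p, and -0.041, -0.082 and -0.038 for let-7e-3p. DESeq2 without attached replicate 2 gave 0.27 for let-7a-5p, -0.33 for let-7a-2-3p, -0.017 for let-7c-5p and -0.35 for let-7e-3p. The cause was not tested.

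With TMM and DESeq2 size factors the summed difference was -0.74 and -0.73 for the miR-99/100 guides and -0.75 and -0.74 for the MIR100HG arms, while the sign turned for the miR-125 guides (0.086 with library totals, -0.17 and -0.16) and the MIR99AHG arms (0.13 with library totals, -0.13 and -0.12). With each library left out these sums ranged from -0.34 to 0.40 for the miR-125 guides, -0.39 to 0.40 for MIR99AHG, -0.27 to 0.23 for SPACA6 and -0.43 to 0.040 for all 9 members. Leaving out each library, the log2 fold change ranged from -0.40 to 0.25 for miR-99a-5p, -0.27 to 0.33 for miR-125a-5p, -0.10 to 1.26 for miR-125a-3p, -0.38 to 0.32 for miR-125b-5p, -0.70 to 0.39 for miR-100-3p, -0.34 to 0.27 for let-7a-5p, -0.83 to 0.55 for let-7a-2-3p, -0.10 to 0.12 for let-7c-5p, -1.38 to 0.29 for let-7c-3p and -0.26 to 0.48 for let-7e-3p. The log2 arm ratio difference ranged from -1.04 to 0.15 for MIR100, -0.91 to -0.079 for MIR99A, -1.37 to 0.073 for MIR125A, -0.28 to 2.01 for MIR125B1, -0.21 to 1.52 for MIR125B2 and -0.23 to 0.74 for MIR99B. Of the 3 nearest profiles, 2 were shared for miR-100-5p with 0.5 or 5 added to the CPM, and for miR-125b-5p 3 were shared with 0.5 and 2 with 5.

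With 2 detached libraries the spread within that group rests on a single difference, and without a detached library the other was assumed to vary like the attached ones. The SE of the members, 0.41 to 0.99 with all 5 libraries, sets the precision of these comparisons.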
